A study of Homo sapiens with 27 samples.

Results

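The genes described here are the protein folding machinery of the endoplasmic reticulum (ER) and the genes of the unfolded protein response. A list of 41 symbols defined the set, and 39 of them had a row among the 13523 genes of the deposited expression table. ERN1, which encodes the sensor IRE1, and TXNDC5 were not analysed here. All 39 genes passed the filter on low values, which kept 13052 genes that reached 1 in 3 or more libraries.

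The ER folds secreted and membrane proteins. BiP, encoded by HSPA5, is its Hsp70 chaperone, and it works with J-domain cochaperones, nucleotide exchange factors, lectin chaperones and disulfide isomerases. When unfolded proteins accumulate, the sensors ATF6, IRE1 and PERK raise the output of this machinery, in part through the transcription factors ATF6 and XBP1, and PERK slows translation through eIF2α phosphorylation, which favours ATF4. mTOR, the kinase that couples growth to amino acids, sets how much protein enters the ER, and TFEB and TFE3 are transcription factors held in check by mTOR.

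RNA was measured in 501mel, a human melanoma cell line with high MITF, by 3′ end sequencing, in which each read stands for the end of a transcript whatever its length, so that levels can be set side by side between genes without a length correction. The labels gave 9 groups of 3 libraries. Unedited (WT) cells were non-treated, kept in HBSS for 12 h, or given the mTOR inhibitor Torin at 250 nM for 12 h. HBSS is a saline that holds glucose and lacks amino acids. No group lacked amino acids alone, so their loss and that of other medium components cannot be told apart. Cells with TFE3 knocked out (TFE3 KO), TFEB knocked out (TFEB KO) or both knocked out (DKO) were sampled as 12 h controls and after 12 h with Torin at 250 nM. Per the study's methods the knockouts were made with Cas9 and 1 guide per gene and are single clones, so a difference between genotypes and a difference between clones cannot be told apart. The labels call the WT controls non-treated and those of all 3 knockouts 12 h controls. In comparisons of a clone with WT that use these controls, also those of their Torin responses, genotype and kind of control cannot be told apart. They do not say whether libraries came from separate cultures, so p-values measure the spread between these libraries, which may be technical.

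Library 3 of WT HBSS and library 1 of WT Torin, as labelled, were identical in value across all 13523 genes. Both were left out, which left 25 libraries and n = 2 for WT HBSS and for WT Torin. The 39 genes summed to 0.798% of all values in the duplicated column, against 0.780% and 0.792% in the other HBSS libraries and 0.569% and 0.555% in the other Torin libraries. Genes with a read numbered 12917 in that column, 12895 and 12901 in the other HBSS libraries, and 13188 and 13181 in the other Torin libraries. By both measures the column lay near HBSS. Which label belongs to it was not tested. Libraries held 4147050 to 6526392 reads. All 7 melanocyte lineage markers had values above 100 in every library, while 8 of the 10 markers of other cell types had no row, COL1A1 reached at most 5.06 and CD68 lay between 29.5 and 74.2. TFE3 was lower in TFE3 KO (log2 fold change -1.79 ± 0.17, SE) and DKO (-1.77 ± 0.17) than in WT. TFEB was lower in TFEB KO (-1.02 ± 0.32), and also in TFE3 KO (-1.41 ± 0.32) and DKO (-1.38 ± 0.32). MITF was lower in DKO (-0.46 ± 0.06). A Cas9 edit need not lower reads at the 3′ end, so these values check the labels only in part.

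Folding genes of the ER share promoter elements that ATF6 and XBP1 are known to use. The ER stress response element (ERSE) is CCAAT and CCACG with 9 bases of any kind between them, ERSE-II is ATTGG and CCACG with 1 base of any kind between them, and the core of the XBP1 element is TGACGTGG. These letters were searched on both strands in the window from 250 bases before to 50 bases after each RefSeq transcript start (GRCh38.p14), in which 37 of the 39 genes had an entry. An exact ERSE was found for 8 of the 37 (CALR, CANX, CRELD2, HSP90B1, HSPA5, PDIA6, SERP1 and XBP1), against 0.0916% of the 27305 genes with an entry. ERSE-II was found for HERPUD1, HYOU1 and SDF2L1, against 0.0696% of genes. The XBP1 core was found for DNAJC10, HYOU1, SEC62 and TXNDC11, against 0.927% of genes, and in HYOU1 it overlapped an ERSE-II match. The E-box CACGTG, the core of the sites that MITF, TFEB and TFE3 bind, was found for 6 of the 37 genes against 8.77% of genes. Its longer form TCACGTGA, which contains the E-box, was found only for ERP29, against 1.18% of genes. A match is a description of the letters and not a site shown to be in use.

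The promoters of 6 genes are printed because the largest changes and the clearest difference between HBSS and Torin fall on them. Each run holds the 250 bases before the RefSeq start, 5′ to 3′ on the strand of the gene, with an exact ERSE or ERSE-II match in capitals, including matches on the opposite strand. SDF2L1 is at chr22:21642052-21642301 (plus strand), HSPA5 at chr9:125241344-125241593 (minus strand), CRELD2 at chr22:49918384-49918633 (plus strand), HERPUD1 at chr16:56931892-56932141 (plus strand), XBP1 at chr22:28800570-28800819 (minus strand) and MANF at chr3:51385041-51385290 (plus strand). The gene bodies of HSPA5, XBP1 and CRELD2 as GENCODE draws them begin further upstream and take in part or all of these windows.
SDF2L1: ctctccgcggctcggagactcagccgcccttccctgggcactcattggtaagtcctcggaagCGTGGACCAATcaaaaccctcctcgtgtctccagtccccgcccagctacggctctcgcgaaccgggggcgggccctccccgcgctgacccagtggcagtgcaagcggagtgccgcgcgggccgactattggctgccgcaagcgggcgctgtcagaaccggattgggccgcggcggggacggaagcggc
HSPA5: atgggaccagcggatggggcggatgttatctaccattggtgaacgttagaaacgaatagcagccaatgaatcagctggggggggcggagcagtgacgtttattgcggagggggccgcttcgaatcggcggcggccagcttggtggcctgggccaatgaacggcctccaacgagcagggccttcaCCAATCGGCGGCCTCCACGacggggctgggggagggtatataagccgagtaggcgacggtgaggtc
CRELD2: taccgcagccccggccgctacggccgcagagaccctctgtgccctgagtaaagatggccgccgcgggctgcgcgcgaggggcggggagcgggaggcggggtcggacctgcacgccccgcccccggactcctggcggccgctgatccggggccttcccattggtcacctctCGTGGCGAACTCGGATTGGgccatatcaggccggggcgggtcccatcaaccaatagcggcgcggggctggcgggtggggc
HERPUD1: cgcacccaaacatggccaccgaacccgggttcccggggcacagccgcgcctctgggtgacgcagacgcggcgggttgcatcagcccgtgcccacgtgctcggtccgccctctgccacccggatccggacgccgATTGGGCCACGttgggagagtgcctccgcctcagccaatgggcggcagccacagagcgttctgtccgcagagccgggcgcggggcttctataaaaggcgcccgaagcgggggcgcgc
XBP1: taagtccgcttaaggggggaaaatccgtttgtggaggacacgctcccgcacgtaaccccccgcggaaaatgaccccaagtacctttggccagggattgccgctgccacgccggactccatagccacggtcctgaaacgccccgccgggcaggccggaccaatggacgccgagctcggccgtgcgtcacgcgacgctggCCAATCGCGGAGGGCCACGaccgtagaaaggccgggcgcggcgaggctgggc
MANF: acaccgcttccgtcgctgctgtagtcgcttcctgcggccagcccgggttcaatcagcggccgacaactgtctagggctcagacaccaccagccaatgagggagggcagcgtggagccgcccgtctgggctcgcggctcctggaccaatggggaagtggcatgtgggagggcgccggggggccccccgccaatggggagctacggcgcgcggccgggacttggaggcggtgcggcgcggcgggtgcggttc
The ERSE-II match began 188 bases before the start in SDF2L1 and 117 before it in HERPUD1. The ERSE match began 66 bases before the start in HSPA5, 80 in CRELD2 and 52 in XBP1. No exact match was present in the window of MANF. XBP1 has another RefSeq start, with its 250 bases at chr22:28800078-28800327 (minus strand). They hold no exact match and are not printed.

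**Figure D1:**
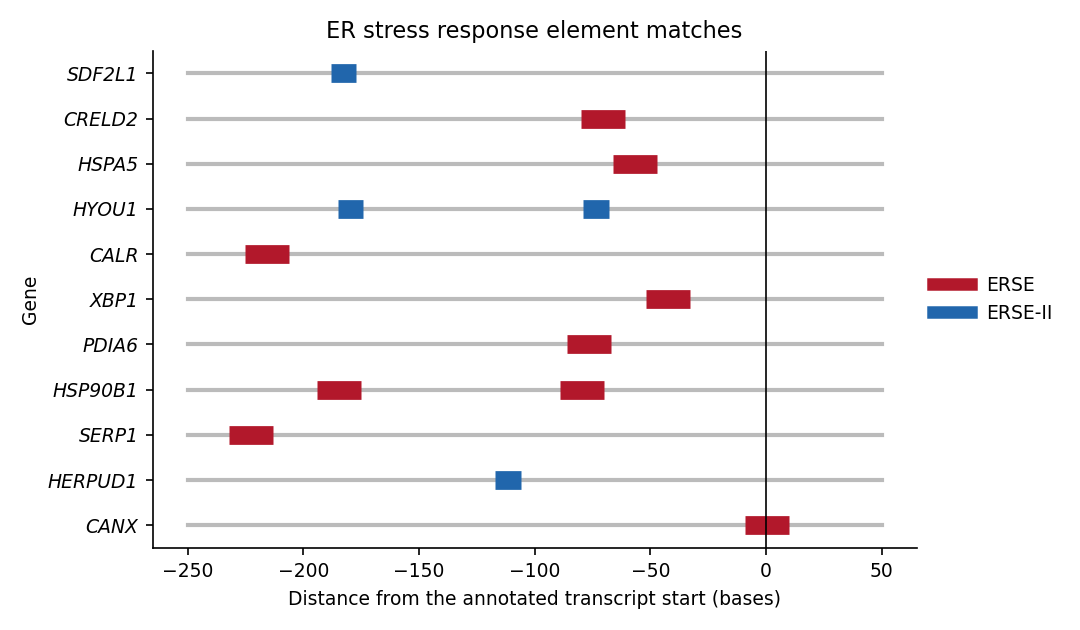
Position of exact ERSE (red) and ERSE-II (blue) matches in the promoter windows of the 11 genes that hold one, with distance from the RefSeq transcript start in bases on the horizontal axis and genes ordered by their change with Torin in WT cells. HYOU1 and HSP90B1 each hold a pair of matches, and for CANX the transcript start nearest to the match is drawn.

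In untreated WT cells the set was led by chaperones. Values are normalised CPM, that is, read counts scaled to the library total and divided by a scaling factor of the library. The highest were those of HSP90B1 (2099.6 ± 59.4, SD, n = 3), HSPA5 (1741 ± 33.8), CALR (1598 ± 104), CANX (1281 ± 32.1) and PDIA6 (1038 ± 94.1), which ranked from 48 to 125 among all genes of the table. The lowest were EDEM1 (9.76 ± 3.01) and DNAJB9 (10.3 ± 2.90). Together the 39 genes made up 1.25% ± 0.0129 of all values (SD, n = 3) in untreated WT cells. The share was 0.786% in HBSS (n = 2) and 0.562% with Torin (n = 2). It was 1.37% ± 0.0317 in TFEB KO and 0.657% ± 0.00669 in TFEB KO with Torin. It was 0.783% ± 0.0243 in TFE3 KO and 0.784% ± 0.0220 in DKO without drug, and 0.485% ± 0.0186 and 0.494% ± 0.0150 in the same clones with Torin. The lowest library without drug in TFE3 KO or DKO lay above every Torin library of any genotype, and the highest lay below every WT and TFEB KO library without drug. Values are relative to the scaled total of their library, so the amount of RNA per cell was not measured. A change in every cell and a change in some of the cells cannot be told apart.

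**Figure D2:**
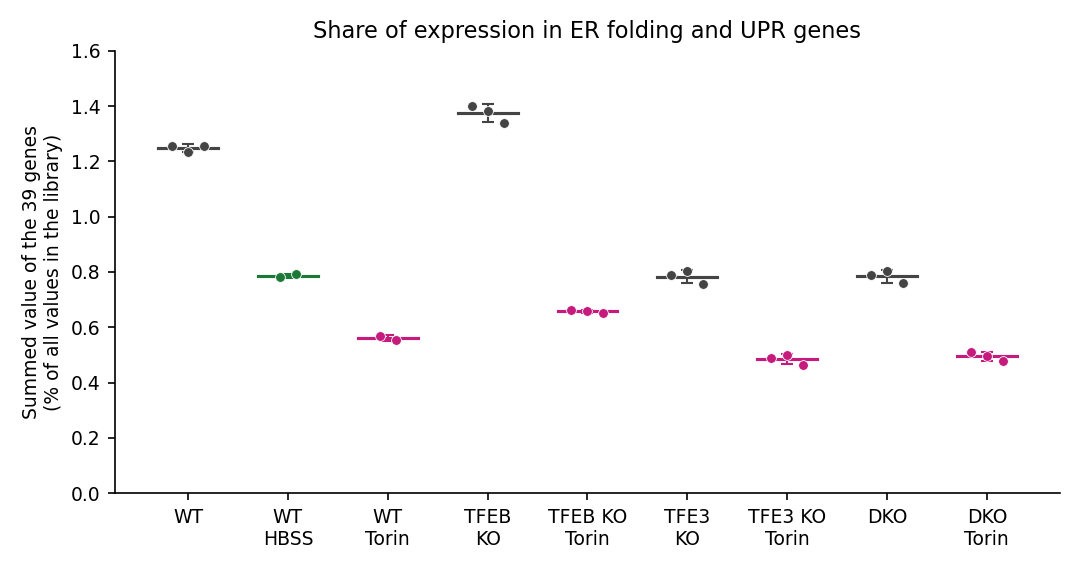
Summed value of the 39 ER genes as a percentage of all values in each library (vertical axis) for the 9 groups (horizontal axis), grey without treatment, green HBSS and magenta Torin. Points are libraries, bars the mean and SD. Untreated WT libraries lie near 1.25%, TFE3 KO and DKO without drug near 0.78%, and all Torin libraries below 0.67%.

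The first comparison asked what 12 h in HBSS did to the folding machinery of WT cells. The main chaperones of the Hsp70 system fell, the sensor ATF6 and the ER-associated degradation (ERAD) gene HERPUD1 rose, and XBP1 did not pass the test. Of the 39 genes, 8 were called lower and 1 higher, where called means a limma adjusted p under 0.05 and a change of at least 2-fold. Among all genes tested 6.2% were called lower and 6.9% higher. Without the fold limit 21 genes passed lower and 6 higher, against 24.7% and 23.6% of all genes. The median log2 fold change of the 39 genes was -0.43, against -0.03 over all genes tested. Counting the duplicated column among the HBSS libraries, 8 genes were called in place of 9.

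Within the Hsp70 system, SDF2L1, which joins the J-domain protein DNAJB11 in a complex with BiP, was at 420.2, 378 and 386 in untreated WT libraries and at 75.5 and 78.5 in HBSS. Its log2 fold change was -2.34 ± 0.10 (SE), with an adjusted p of 1.3e-23. HSPA5 was at 1732, 1713 and 1778 untreated and at 502 and 517 in HBSS, a log2 fold change of -1.77 ± 0.09 (adjusted p = 1.2e-21). DNAJB11 itself was at 264, 246 and 261 untreated and at 127 and 126 in HBSS. In all 3 genes the groups did not overlap, as was the case for 31 of the 39 genes and for 63.1% of all genes tested. The call of DNAJB11 (-1.02 ± 0.10) sat at the fold limit and ended at -0.997 when WT control replicate 1 was left out and at -0.99998 under TMM scaling. HYOU1, an exchange factor for BiP, fell by less (-0.53 ± 0.11), and HSP90B1, the Hsp90 of the ER, lay between 2044 and 2162 untreated and fell to values between 1595 and 1653 (-0.37 ± 0.07). DNAJC3, a cochaperone that also restrains PERK, did not pass the test (0.04 ± 0.11). DNAJB9, a J-domain protein that holds IRE1 inactive with BiP, rose from 13.3, 7.52 and 10.1 to 15.6 and 17.4 (0.66 ± 0.26, adjusted p = 0.035).

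Of the 7 disulfide isomerases and related genes, 6 passed lower in HBSS and 1 higher, against 24.7% and 23.6% of all genes. CRELD2, a small ER protein with isomerase activity, was at 228, 213 and 217 untreated and at 58.9 and 63.8 in HBSS (-1.82 ± 0.12, adjusted p = 6.8e-18). PDIA4 was at 136, 123 and 137 untreated and at 59.8 and 52.1 in HBSS (-1.22 ± 0.13). The abundant isomerases PDIA6 (-0.69), PDIA3 (-0.66) and P4HB (-0.56) fell by less than 2-fold. ERP29, a member of the family without the active site for disulfide exchange, lay between 268 and 310.1 untreated and rose to values between 422 and 456 (0.62 ± 0.08, adjusted p = 5.5e-09). MANF, a secreted factor that binds BiP, was at 324, 241 and 228 untreated and at 70.6 and 71.4 in HBSS (-1.86 ± 0.18, adjusted p = 7.1e-09). In none of CRELD2, PDIA4, ERP29 and MANF did an HBSS library reach the range of the untreated ones.

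Among lectin chaperones and glycan readers, CALR lay between 1490.1 and 1698 untreated and fell to values between 797 and 821 (-0.98 ± 0.08), whereas its membrane-bound partner CANX lay between 1250.0 and 1314 untreated and between 1326 and 1336 in HBSS (0.06 ± 0.07, adjusted p = 0.53). EDEM2, a mannosidase that marks glycoproteins for degradation, was at 14.5, 11.5 and 13.1 untreated and at 6.21 and 4.60 in HBSS (-1.13 ± 0.24), and its call ended at -0.95 without WT HBSS replicate 2. OS9, which reads such trimmed glycans, rose (0.43 ± 0.09). Among ERAD genes, HERPUD1, a membrane scaffold of the degradation complex, was at 102, 83.9 and 86.8 untreated and at 179 and 186 in HBSS (1.003 ± 0.16, adjusted p = 4.8e-06). All HBSS libraries were above all untreated ones, but the fold sat at the limit, and the call ended at 0.95 without WT control replicate 2, at 0.97 without WT control replicate 3 and at 0.98 without WT HBSS replicate 2. DERL2, a subunit of the retrotranslocation channel, fell (-0.87 ± 0.15), and SEL1L, SYVN1 and DERL1 did not pass. Of the 5 translocon genes, SEC61A1 (-0.66), SSR1 (-0.62) and SERP1 (-0.68) fell and SEC62 rose (0.21).

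Among sensors and signalling genes, ATF6 was at 33.4, 33.5 and 35.3 untreated and at 57.99 and 56.7 in HBSS (0.74 ± 0.13, adjusted p = 3.6e-06). XBP1, whose spliced messenger encodes an activator of ERAD and chaperone genes, was at 172, 176 and 162 untreated and at 165 and 172 in HBSS, with overlapping groups (-0.01 ± 0.10, 95% interval -0.21 to 0.19). A 3′ read does not tell spliced from unspliced XBP1. EIF2AK3, which encodes PERK, was at 14.8, 18.4 and 12.3 untreated and at 19.8 and 16.1 in HBSS (0.24 ± 0.22, adjusted p = 0.39). WFS1, a membrane protein that restrains ATF6, fell from 20.7, 18.6 and 18.1 to 6.44 and 8.9996 (-1.22 ± 0.19).

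The genes downstream of PERK went the other way in HBSS. Of a list of 11 PERK branch effectors, 8 were called higher and none lower, against 6.9% and 6.2% of all genes, with a median log2 fold change of 1.76 against -0.03 over all genes. CHAC1, a glutathione-degrading target of ATF4 signalling, went from 8.15 ± 2.31 (SD, n = 3) to 101 ± 15.7 (n = 2), a log2 fold change of 3.498 ± 0.250 (adjusted p = 2.2e-16). ATF3, a stress transcription factor, went from 7.87 ± 2.05 to 39.2 ± 5.42 (2.20 ± 0.23). EIF2S1, which encodes eIF2α, was the list member that fell (-0.31 ± 0.09). ATF4 (1.87 ± 0.07) and DDIT3 (1.76 ± 0.13), the central factors of that branch, belong to the same list and are part of its counts. They were picked out for naming after their values had been seen. ATF4 and its targets also respond to amino acid shortage through another eIF2α kinase, and which kinase acted was not tested.

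With Torin, WT cells showed a broader fall of the same machinery. Of the 39 genes, 17 were called lower and none higher, against 4% of all genes called lower and 5.66% called higher. Without the fold limit 31 passed lower and 1 higher (OS9), against 23.4% and 20.5%. The median log2 fold change was -0.93, against 0.00 over all genes. Untreated and Torin libraries did not overlap in 33 of the 39 genes, against 60.2% of all genes. The Torin and HBSS comparisons share the untreated WT libraries, so their values are set side by side and the difference is tested further on. Counting the duplicated column among the WT Torin libraries, 10 genes were called in place of 17, and the calls of DNAJC3, HSP90B1, P4HB, PDIA3, SERP1, SSR1 and HERPUD1 ended.

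SDF2L1 fell from 420.2, 378 and 386 to 33.05 and 38.4 (-3.43 ± 0.10, adjusted p = 4.2e-30), which was the largest change among the 39 genes in any of the 5 treatment comparisons. HSPA5 was at 368 and 368 with Torin (-2.24 ± 0.09, adjusted p = 3.2e-25). DNAJB11 was at 61.2 and 56.4 (-2.11 ± 0.10). All Torin libraries of these 3 genes lay below all HBSS libraries as well. HYOU1 fell from 172, 204 and 201 to 46.2 and 49.5 (-1.98 ± 0.11). DNAJC3 fell from 148, 154 and 144 to 53.7 and 64.5 (-1.32 ± 0.11). HSP90B1 fell from 2044, 2093 and 2162 to 922 and 890.0 (-1.21 ± 0.07). DNAJB9 was the only gene that did not pass (-0.42 ± 0.26, adjusted p = 0.19) among the 10 of this class, in which HSP90B1 is counted with the Hsp70 system. SDF2 (the paralogue of SDF2L1), DNAJC10 (a reductase with a J domain) and SEC63 (the J-domain protein of the translocon) fell by less than 2-fold, with log2 fold changes of -0.71, -0.42 and -0.37.

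In the isomerase class 5 of 7 genes were called lower with Torin, against 4% of all genes. CRELD2 was at 35.9 and 42.4 (-2.46 ± 0.12, adjusted p = 2.4e-22) and PDIA4 at 31.6 and 38.6 (-1.88 ± 0.13). PDIA6 fell from 1146, 977 and 991 to 387 and 359 (-1.47 ± 0.08), PDIA3 from 297, 265 and 259.9 to 129 and 114 (-1.17 ± 0.10) and P4HB from 405, 367 and 425 to 186 and 192 (-1.07 ± 0.08). ERP29, which rose in HBSS, lay between 279 and 292 with Torin (0.01 ± 0.08, 95% interval -0.15 to 0.17). MANF was at 55.8 and 41.2 (-2.42 ± 0.18). HSP90B1 and PDIA3 have processed pseudogenes, and how reads that match several places were counted is not given in the sources used here.

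CALR fell from 1698, 1490.1 and 1607 to 523 and 502 (-1.64 ± 0.08), STT3A, a catalytic subunit of the oligosaccharyltransferase, by less (-0.93 ± 0.11), and CANX least of the 3 (-0.38 ± 0.07). OS9 rose from 95.2, 104 and 106 to 145 and 142 (0.49 ± 0.09, adjusted p = 1.7e-05). All 5 ERAD genes passed lower, against 23.4% of all genes. They ran from SYVN1 (-0.50), the ubiquitin ligase, and DERL2 (-0.56) to HERPUD1, which was at 46.9 and 42.7 (-1.0003 ± 0.16, adjusted p = 7e-06). The HERPUD1 call sat at the fold limit and ended at -0.92 without WT control replicate 1 and at -0.93 without WT Torin replicate 3. SSR1, a subunit of the translocon-associated complex, fell from 313, 291 and 319 to 154 and 133 (-1.10 ± 0.09), and its call ended at -0.99 without WT Torin replicate 3. SERP1, a stress-inducible protein of the translocon, fell from 331, 287 and 315 to 149 and 148 (-1.06 ± 0.08), a call that ended at -0.998 under TMM scaling. SEC62 did not pass (-0.08 ± 0.09).

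XBP1 was at 54.1 and 58.3 with Torin, below all 3 untreated libraries and both HBSS libraries (-1.58 ± 0.10, adjusted p = 6.4e-18). ATF6 was at 34.7 and 32.7 (-0.01 ± 0.13, 95% interval -0.27 to 0.24), and EIF2AK3 at 10.1 and 12.3 (-0.39 ± 0.22, adjusted p = 0.14). WFS1 was at 8.67 and 9.95 (-0.97 ± 0.19). Of the 11 PERK branch effectors none was called in either direction with Torin, against 4% of all genes called lower and 5.66% called higher. None of 11 is near that background. By the adjusted p alone 2 of the 11 passed higher and 5 lower, against 20.5% and 23.4% of all genes. PPP1R15A, which directs a phosphatase to eIF2α, went from 49.7 ± 4.92 to 96.4 ± 4.43 (0.95 ± 0.12), and TRIB3, a pseudokinase induced by ATF4, from 93.5 ± 4.89 to 52.8 ± 7.58 (-0.82 ± 0.11). The 11 genes with an ERSE or ERSE-II match had a median log2 fold change of -1.58 with Torin, and the 26 with neither -0.63. In HBSS these medians were -0.68 and -0.29. These medians are descriptions with no test, and the 11 genes ranged from -3.43 (SDF2L1) to -0.38 (CANX) with Torin.

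**Figure D3:**
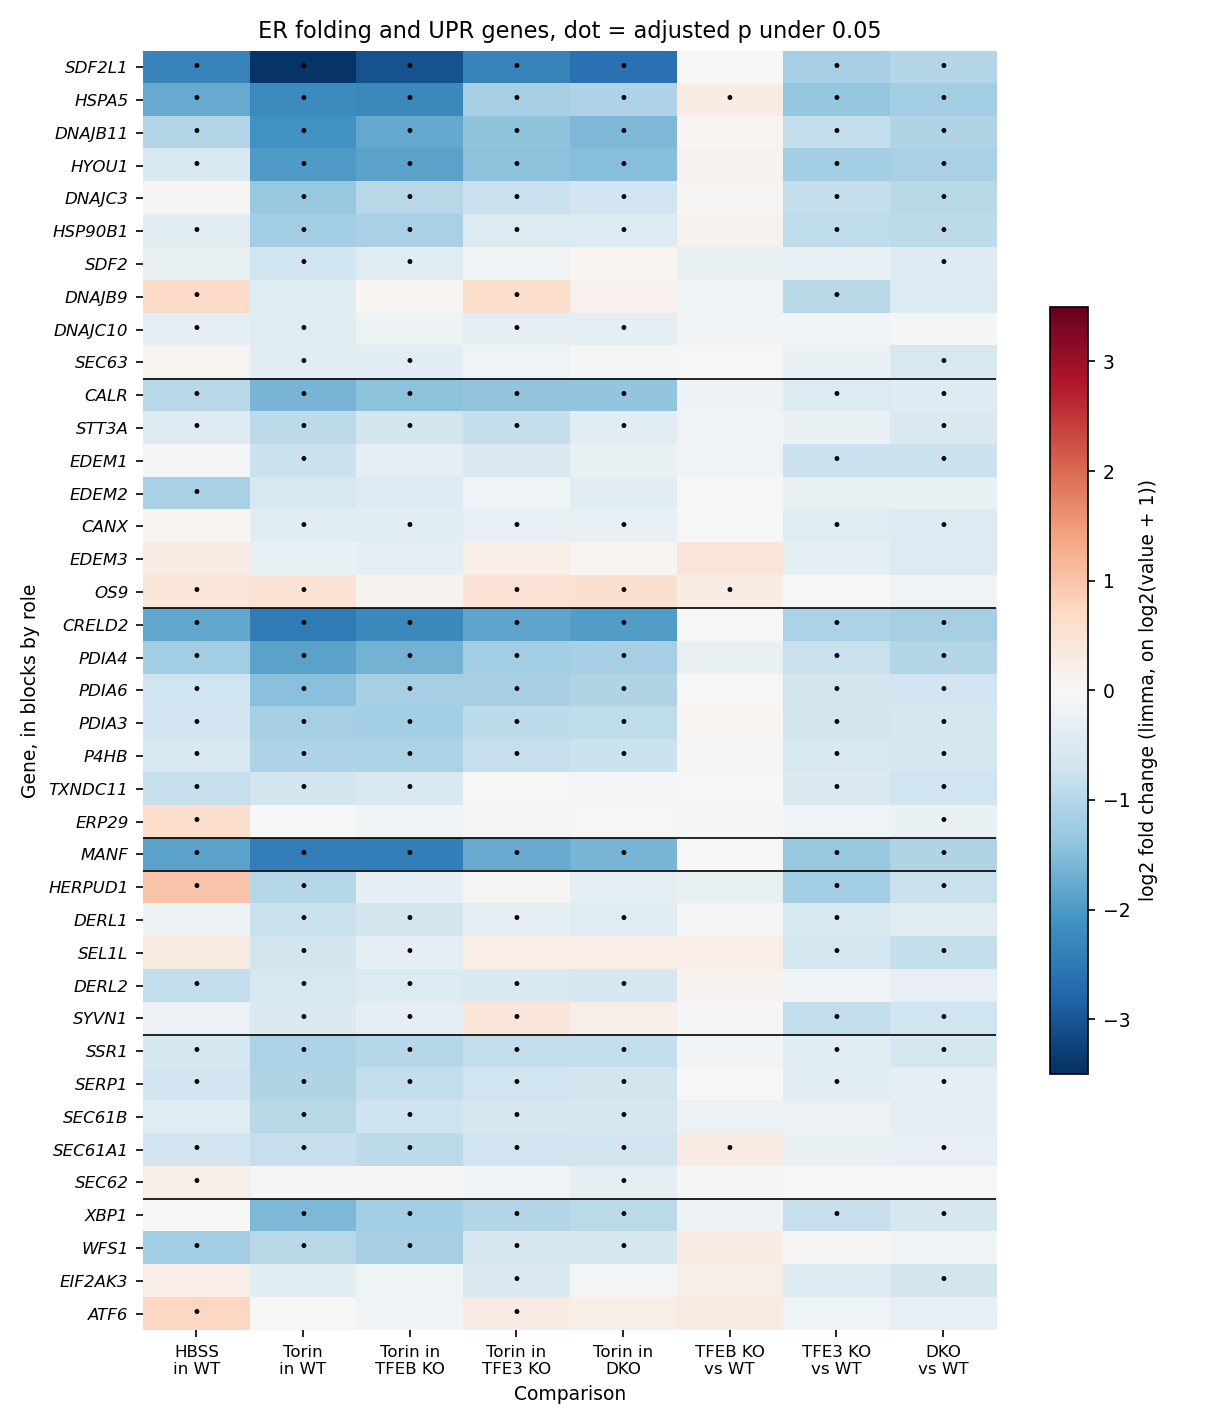
Log2 fold change of each of the 39 genes (vertical axis, in blocks for the Hsp70 system with HSP90B1, lectins and glycan readers, isomerases, MANF, ERAD, translocon, and sensors) in 8 comparisons (horizontal axis), blue lower and red higher, with a dot where the limma adjusted p is under 0.05. The Torin columns are blue in most rows for every genotype, the TFEB KO column is near 0, and HERPUD1, ATF6, ERP29 and DNAJB9 are red in HBSS.

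The difference between HBSS and Torin was tested directly in WT cells. Of the 39 genes, 7 were called higher in HBSS than with Torin and none lower, against 6.95% and 9.64% of all genes. By the adjusted p alone 30 passed higher and none lower, against 26.1% and 23.1% of all genes. HERPUD1 differed most, at 179 and 186 in HBSS against 46.9 and 42.7 with Torin (2.003 ± 0.18, adjusted p = 5.8e-11). It was followed by XBP1 (1.57 ± 0.11), HYOU1 (1.45 ± 0.12), DNAJC3 (1.36 ± 0.12), SDF2L1 (1.09 ± 0.11), DNAJB11 (1.09 ± 0.11) and DNAJB9 (1.08 ± 0.29). Once the duplicated column joined the WT Torin libraries, 2 were called and 13 passed. For SDF2L1 the call ended at 0.98, and for DNAJB9 at 0.91, without WT Torin replicate 2. EDEM2 (-0.58 ± 0.26), WFS1 (-0.25 ± 0.21), DERL2 (-0.31 ± 0.17), TXNDC11 (-0.18 ± 0.17) and OS9 (-0.06 ± 0.10) had values below 0 and did not pass.

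**Figure D4:**
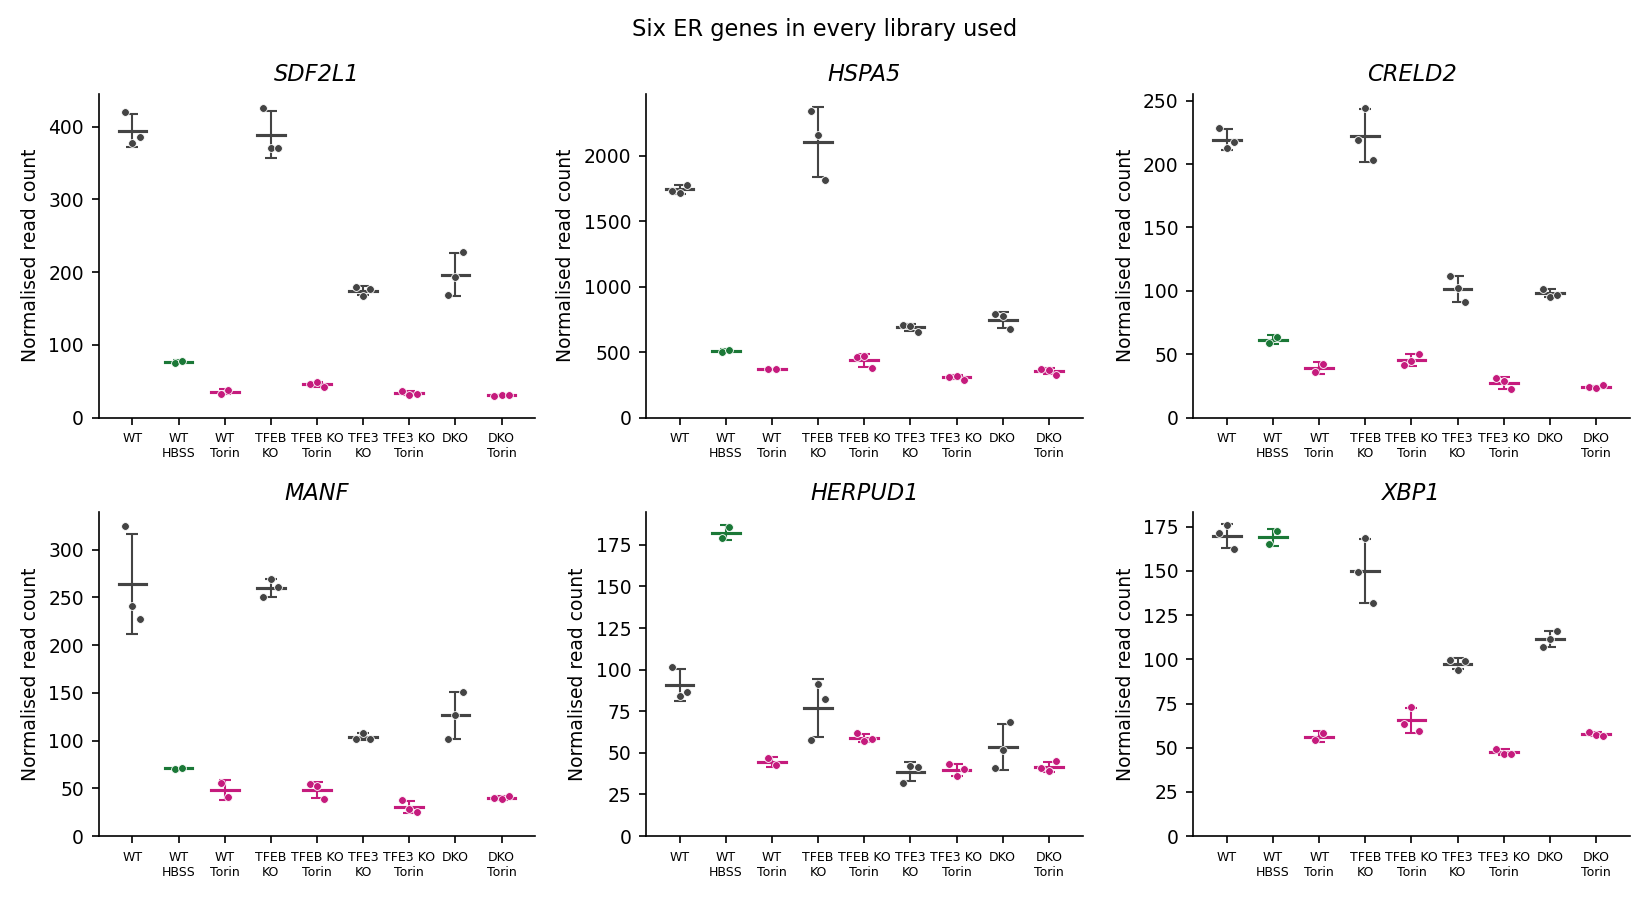
Normalised CPM (vertical axes, linear from 0) of SDF2L1, HSPA5, CRELD2, MANF, HERPUD1 and XBP1 in every library used, by group (horizontal axis), grey without treatment, green HBSS and magenta Torin, with bars for the mean and SD. HERPUD1 is highest in HBSS at 179 and 186, XBP1 in HBSS overlaps untreated WT, and SDF2L1 with Torin lies between 30.3 and 49.5 in every genotype.

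Without drug the clones were compared with untreated WT cells. TFE3 KO and DKO had lower levels of most of the machinery, while TFEB KO had levels near those of WT. In TFE3 KO 6 of the 39 genes were called lower and none higher, against 1.33% and 0.192% of all genes. Without the fold limit 24 passed lower and none higher, against 5.84% and 3.57%. In DKO 7 were called lower and 28 passed lower, against 1.18% and 7.49%. None was called higher and none passed higher, against 0.636% and 5.64%. In TFEB KO none was called by limma, edgeR or DESeq2, with 8 genes at an unadjusted p under 0.05, against 0.253% of all genes called lower and 1.42% higher. Without the fold limit 3 passed higher and none lower by limma (HSPA5, OS9 and SEC61A1), against 7.46% of all genes higher and 7.18% lower. The medians were -0.51 in TFE3 KO, -0.60 in DKO and -0.01 in TFEB KO. The 3 comparisons share the untreated WT libraries. The count of 3 in TFEB KO fell to 1 without WT control replicate 1, without TFEB KO control replicate 2 or without TFEB KO control replicate 3.

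HSPA5 was at 709, 699 and 655 in TFE3 KO (-1.34 ± 0.08, adjusted p = 2.5e-18) and at 787, 778 and 675 in DKO (-1.22 ± 0.08), all below the lowest WT library at 1713. In TFEB KO it was at 2337, 2156 and 1809, above all 3 WT libraries (0.26 ± 0.08, adjusted p = 0.017). SDF2L1 was at 179, 168 and 177 in TFE3 KO (-1.17 ± 0.09), at 169, 193 and 227 in DKO (-1.01 ± 0.09) and at 426, 371 and 371 in TFEB KO (-0.02 ± 0.09, 95% interval -0.21 to 0.17). In DKO its call ended at -0.97 without WT control replicate 1 and at -0.91 without DKO control replicate 1, and also with edgeR (-0.998) and DESeq2 (-0.9998). HYOU1 was at 91.3, 86.04 and 76.3 in TFE3 KO (-1.18 ± 0.10) and 92.7, 89.2 and 77.5 in DKO (-1.14 ± 0.10), with 229, 200.2 and 195 in TFEB KO. DNAJB11 was at 138, 144 and 148 in TFE3 KO (-0.84 ± 0.09) and 129.6, 109 and 129 in DKO (-1.06 ± 0.09). Its call in DKO ended at -0.98 without DKO control replicate 2. HSP90B1 was at 1128, 1193 and 1076 in TFE3 KO (-0.89 ± 0.07) and 1155, 1158 and 1018 in DKO (-0.92 ± 0.07).

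CRELD2 was at 112, 102 and 91.4 in TFE3 KO (-1.10 ± 0.10), at 102, 95.5 and 96.7 in DKO (-1.16 ± 0.10) and at 219, 245 and 203 in TFEB KO (0.02 ± 0.10). MANF was at 102, 108 and 102 in TFE3 KO (-1.32 ± 0.16), at 102, 126 and 151 in DKO (-1.06 ± 0.16) and at 250.0, 269 and 261 in TFEB KO (-0.01 ± 0.16). The MANF call in DKO ended at -0.90 without WT control replicate 1 and at -0.91 without DKO control replicate 1. PDIA4 was at 71.3, 78.8 and 80.3 in TFE3 KO (-0.77 ± 0.11) and at 53.1, 66.6 and 73.1 in DKO (-1.04 ± 0.11), where the call ended at -0.91 without DKO control replicate 1. The other isomerases PDIA3, PDIA6 and P4HB passed lower in both clones, with log2 fold changes of -0.55 to -0.68. CALR (-0.49 in TFE3 KO, -0.45 in DKO) and CANX (-0.42 and -0.48) also passed lower in both clones.

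Of the 5 ERAD genes, 4 passed lower in TFE3 KO and 3 in DKO, against 5.84% and 7.49% of all genes. HERPUD1 was at 31.97, 41.9 and 41.8 in TFE3 KO (-1.22 ± 0.14, adjusted p = 2e-07), at 40.7, 51.9 and 68.4 in DKO (-0.77 ± 0.14) and at 57.8, 91.3 and 82.2 in TFEB KO (-0.25 ± 0.14). SEL1L, the scaffold that holds the ligase SYVN1, was at 41.9, 57.996 and 56.2 in WT, 32.7, 35.3 and 31.97 in TFE3 KO (-0.62 ± 0.13) and 29.8, 23.9 and 32.2 in DKO (-0.84 ± 0.13). SYVN1 was lower in TFE3 KO (-0.86 ± 0.13) and DKO (-0.69 ± 0.13). XBP1 was at 99.4, 93.9 and 99.02 in TFE3 KO (-0.80 ± 0.09), at 107, 112 and 116 in DKO (-0.60 ± 0.09) and at 149.6, 168 and 132 in TFEB KO (-0.18 ± 0.09, adjusted p = 0.17). ATF6 lay between 29.2 and 33.1 in TFE3 KO and between 26.6 and 29.98 in DKO and passed in neither. EIF2AK3 was at 10.2, 11.7 and 10.1 in TFE3 KO (-0.45 ± 0.20, adjusted p = 0.15) and at 8.57, 10.8 and 8.61 in DKO (-0.64 ± 0.20, adjusted p = 0.022). WFS1, OS9, DERL2, SEC61B, SEC62, DNAJC10, EDEM2 and EDEM3 passed in neither clone.

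The clones were then compared with each other without drug, a set of tests added after the values above had been seen. TFE3 KO was lower than TFEB KO in 6 called genes (HSPA5, MANF, HYOU1, SDF2L1, CRELD2 and HSP90B1), against 3.62% of all genes, and 30 passed lower, against 15.6%. HSPA5 differed by -1.60 ± 0.08 (adjusted p = 1.8e-21), and HSP90B1 by -1.01 ± 0.07, a call that ended at -0.98 without TFEB KO control replicate 3 or TFE3 KO control replicate 3. DKO was lower than TFEB KO in 8 called genes and 29 passed lower, against 2.7% and 13.7%. They were HSPA5 (-1.49), HYOU1 (-1.26), CRELD2 (-1.17), DNAJB11 (-1.13), SEL1L (-1.08), MANF (-1.05), HSP90B1 (-1.04) and DNAJC3 (-1.03). Of these, 4 calls ended when 1 library was left out. DNAJC3 ended at -0.99 without TFEB KO control replicate 3 and at -0.95 without DKO control replicate 3, HSP90B1 at -0.98 without DKO control replicate 3, MANF at -0.90 without DKO control replicate 1, and SEL1L at -0.99 without TFEB KO control replicate 3 and at -0.96 without DKO control replicate 2. Between DKO and TFE3 KO none was called, against 0.199% of all genes lower and 0.544% higher. SEC63 alone passed by limma (-0.34 ± 0.09, adjusted p = 0.017), against 2.22% of all genes lower and 2.65% higher. Both counts are near that background. SEC63 no longer passed without any 1 of the TFE3 KO control libraries or without DKO control replicate 3, where the count was 0. The count was 2 without TFEB KO control replicate 1 or 2 or DKO control replicate 1. At an unadjusted p under 0.05, 8 of the 39 genes differed, and edgeR and DESeq2 called none. The 95% interval of the difference was -0.04 to 0.27 for HSPA5 and -0.03 to 0.34 for SDF2L1.

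With Torin the fall was seen in every genotype, each clone set against its own 12 h controls. In TFEB KO 14 of the 39 genes were called lower, against 1.65% of all genes, in TFE3 KO 10, against 4.69%, and in DKO 9, against 4.29%. None was called higher in these clones, against 3.36%, 6.98% and 6.83% of all genes in the same order. By the adjusted p alone 28, 25 and 25 passed lower, against 21%, 26% and 26.2%. None passed higher in TFEB KO, 4 did in TFE3 KO (DNAJB9, OS9, SYVN1 and ATF6) and 1 in DKO (OS9), against 17.4%, 25.4% and 25.4% of all genes. The medians were -0.65, -0.54 and -0.47, against 0.00, 0.02 and 0.02 over all genes tested.

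SDF2L1 was at 46.2, 49.5 and 42.1 in TFEB KO with Torin (-3.06 ± 0.09), at 36.5, 31.6 and 32.7 in TFE3 KO (-2.35 ± 0.09) and at 30.3, 30.7 and 31.7 in DKO (-2.62 ± 0.09). HSPA5 was at 460.2, 469.7 and 377 in TFEB KO (-2.27 ± 0.08), at 312, 318 and 289 in TFE3 KO (-1.16 ± 0.08) and at 374, 365 and 327 in DKO (-1.07 ± 0.08). Every Torin library of these genes lay below every library of its own genotype without drug. CRELD2 was at 41.2, 44.6 and 50.3 in TFEB KO, at 31.4, 29.2 and 22.3 in TFE3 KO and at 23.8, 23.7 and 25.4 in DKO. MANF was at 54.7, 52.3 and 39.1 in TFEB KO, at 37.9, 27.8 and 25.4 in TFE3 KO and at 39.4, 38.5 and 42.1 in DKO, again below the controls of each genotype. XBP1 was at 63.6, 73.2 and 59.5 in TFEB KO (-1.18 ± 0.09), at 49.4, 46.3 and 46.6 in TFE3 KO (-1.02 ± 0.09) and at 58.8, 57.1 and 56.9 in DKO (-0.94 ± 0.09). HYOU1 was at 58.8, 57.3 and 51.5 in TFEB KO (-1.88 ± 0.10), at 28.8, 27.4 and 35.6 in TFE3 KO (-1.44 ± 0.10) and at 28.5, 32.6 and 29.9 in DKO (-1.48 ± 0.10). DNAJB11 was at 71.6, 77.6 and 84.5 in TFEB KO (-1.78 ± 0.09), at 57.03, 58.3 and 46.4 in TFE3 KO (-1.40 ± 0.09) and at 42.8, 37.2 and 40.5 in DKO (-1.58 ± 0.09). Under TMM scaling the XBP1 call in TFE3 KO ended at -0.988. CALR, PDIA4 and PDIA6 were called in all 3 clones as well, PDIA6 in DKO at -1.04 ± 0.07, which ended at -0.997 under TMM scaling. CALR was at 506, 550.0 and 500.3 in TFEB KO (-1.44 ± 0.07), at 433, 472 and 403 in TFE3 KO (-1.38 ± 0.07) and at 489, 445 and 409.9 in DKO (-1.39 ± 0.07). WFS1 was called in TFEB KO (-1.16 ± 0.17), a call that ended at -0.96 without TFEB KO Torin replicate 3.

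HERPUD1, called lower with Torin in WT, passed in none of the clones by limma. In TFE3 KO it was at 31.97, 41.9 and 41.8 without drug and 43.2, 35.8 and 40.2 with Torin (0.05 ± 0.14, adjusted p = 0.8). In DKO it was at 40.7, 51.9 and 68.4 and 41.1, 39.1 and 45.1 (-0.33 ± 0.14, adjusted p = 0.059), and in TFEB KO at 57.8, 91.3 and 82.2 and 61.9, 57.3 and 58.4 (-0.35 ± 0.14, adjusted p = 0.055). SYVN1 rose with Torin in TFE3 KO, from 20.5, 20.6 and 16.2 to 25.4, 29.4 and 23.5 (0.43 ± 0.13, adjusted p = 0.0053). DNAJB9 rose there as well, from 3.71, 6.13 and 4.37 to 7.84, 7.35 and 7.91 (0.62 ± 0.24, adjusted p = 0.024).

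Whether Torin lowered the genes by the same amount in a clone as in WT was tested as an interaction, the Torin response of the clone minus that of WT. In TFE3 KO the difference was above 0 in 11 genes that passed and below 0 in none, against 0.49% of all genes with a higher and 0.575% with a lower value, and 3 were called (HSPA5, SDF2L1 and HERPUD1), against 0.176%. In DKO 8 passed, all above 0, and 1 was called (HSPA5), against 0.314% and 0.123%. In TFE3 KO 8 of the 11 passed lower with Torin in the clone itself, while SYVN1 rose (-0.50 in WT, 0.43 in TFE3 KO) and HERPUD1 (0.05) and SEL1L (0.24 ± 0.13) did not pass. In DKO 7 of the 8 passed lower and SEL1L did not pass (0.22 ± 0.13). In TFEB KO none passed by limma, edgeR or DESeq2, with 7 at an unadjusted p under 0.05. By limma 0.812% of all genes passed higher there and 0.345% lower, so none among the 39 is near that background. The median difference in TFEB KO was 0.12, against medians of 0.39 in TFE3 KO and 0.41 in DKO. For HSPA5 the difference was 1.07 ± 0.12 in TFE3 KO (adjusted p = 2.7e-08), 1.17 ± 0.12 in DKO (adjusted p = 5.8e-09) and -0.03 ± 0.12 in TFEB KO (95% interval -0.26 to 0.21). When the duplicated column was put among the WT Torin libraries, no gene was called and HSPA5 alone passed in each of TFE3 KO and DKO. The summed share of the set in that column lay near that of the HBSS libraries, as given above. The WT Torin response rests on 2 libraries, and the count of 11 in TFE3 KO fell to 7 without WT Torin replicate 2, to 6 without WT Torin replicate 3 and to 7 without TFE3 KO control replicate 2. The calls of SDF2L1 and HERPUD1 ended too, SDF2L1 at 0.98 without WT Torin replicate 2 and HERPUD1 at 0.97 without WT control replicate 1, 0.98 without WT Torin replicate 3, 0.92 without TFE3 KO control replicate 1 and 0.99 without TFE3 KO Torin replicate 1. The count of 8 in DKO fell to 3 without WT Torin replicate 2 and to 5 without DKO Torin replicate 3.

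**Figure D5:**
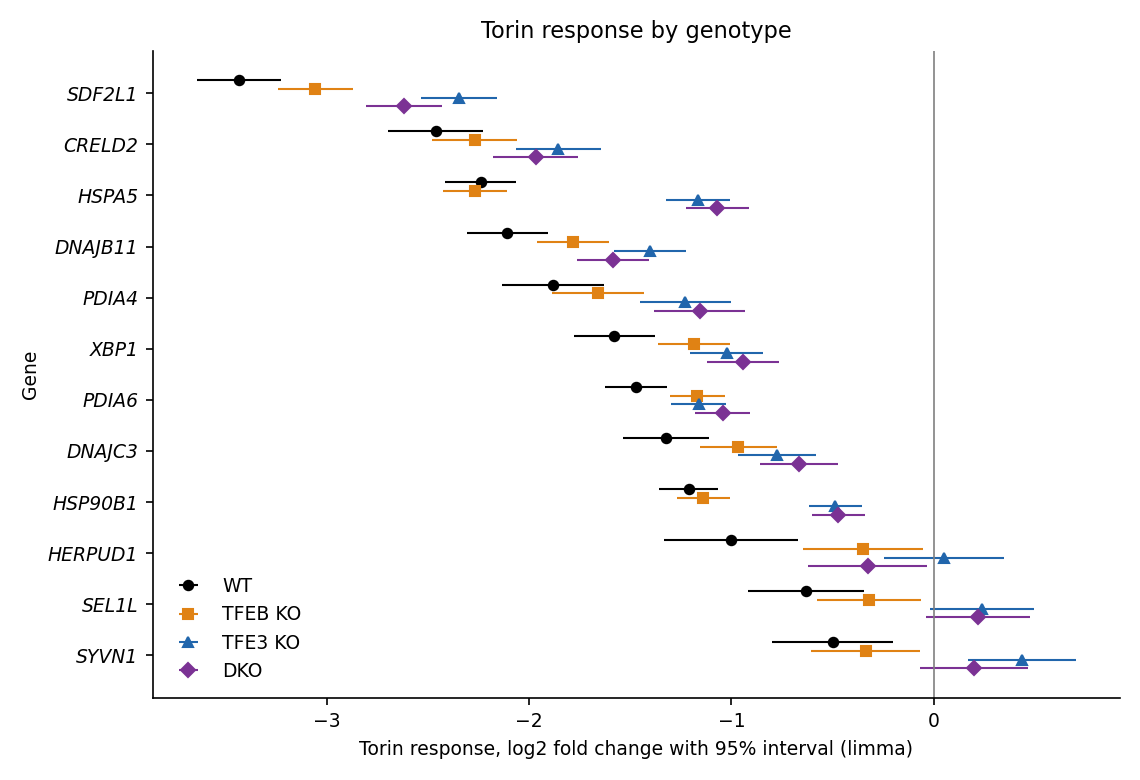
Log2 fold change with Torin and its 95% interval from limma (horizontal axis) in WT, TFEB KO, TFE3 KO and DKO for the 12 genes whose Torin response differed from WT in TFE3 KO or DKO (vertical axis). HSPA5 lies near -2.24 in WT and -2.27 in TFEB KO, and near -1.16 in TFE3 KO and -1.07 in DKO.

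Compared under Torin, no gene of the 39 was called between a clone and WT in any of the 3 genotypes by limma, edgeR or DESeq2. At an unadjusted p under 0.05, 15 differed in TFE3 KO, 12 in TFEB KO and 17 in DKO. Of all genes 1.5% were called lower and 0.437% higher in TFE3 KO, 0.391% and 2.05% in TFEB KO, and 1.15% and 1.22% in DKO. By the adjusted p alone 8 passed lower and none higher in TFE3 KO, against 6.23% and 3.41% of all genes. They were MANF (-0.66), HYOU1 (-0.64), CRELD2 (-0.50), PDIA3 (-0.41), PDIA6 (-0.32), CANX (-0.31), P4HB (-0.28) and HSPA5 (-0.27). In DKO 10 passed lower and none higher, against 7.03% and 5.03%, led by CRELD2 (-0.66), HYOU1 (-0.64) and DNAJB11 (-0.54). In TFEB KO 5 passed higher (SEL1L, DNAJC3, DNAJB11, SDF2L1 and PDIA6, with 0.32 to 0.55) and ERP29 passed lower (-0.24), against 9.39% and 8.56%. These counts moved with single libraries, the TFE3 KO count to 3 without WT Torin replicate 2, 5 without WT Torin replicate 3 and 4 without TFE3 KO Torin replicate 3. The DKO count went to 5, 6 and 5 without WT Torin replicate 2, WT Torin replicate 3 and DKO Torin replicate 3. The TFEB KO count of 6 went to 3 and 2 without WT Torin replicates 2 and 3.

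The wider secretory pathway was followed with 8 further lists, 188 genes of which 184 were tested. They include the PERK branch effectors given above and a list of other transcription factors and proteases of the response. With Torin in WT 101 of the 184 passed lower and 20 higher, with a median of -0.40, against 23.4% and 20.5% of all genes. In HBSS 65 passed lower and 30 higher, with a median of -0.13, against 24.7% and 23.6% of all genes, and the shares of single lists given here are to be read against these. Without drug, 33 passed lower and 2 higher in TFE3 KO, against 5.84% and 3.57% of all genes. In DKO 42 passed lower and none higher, against 7.49% and 5.64%. In TFEB KO 10 passed lower and 9 higher, against 7.18% and 7.46% of all genes, which is no more than that background. With Torin the ER export list (22 of 35 lower, 2 higher) was led by SURF4, a cargo receptor, which went from 267 ± 8.55 to 96.8 ± 1.26 (-1.46 ± 0.09), and PREB, which starts COPII coat assembly (-1.33 ± 0.10). In the translocon and signal peptidase list 17 of 26 passed lower and none higher, led by the signal peptidase subunit SPCS3 (-1.43 ± 0.09) and the translocon-associated SSR3 (-1.21 ± 0.07). In the N-glycosylation list 19 of 33 passed lower and 4 higher, with MLEC at -1.19 ± 0.08 and MAN1B1 at 0.61 ± 0.17. The ERAD list had 14 of 25 lower and 3 higher, with VCP, the ATPase that extracts substrates, at -1.07 ± 0.08 and SELK at -1.21 ± 0.11. The isomerase list had 12 of 21 lower and 3 higher, with FKBP14 at -1.29 ± 0.13 and FKBP7 at 1.12 ± 0.26, and the cochaperone and calcium binder list 9 of 22 lower and 1 higher, with NUCB2 at -1.57 ± 0.12.

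Over the 8 lists together fewer genes passed lower and more passed higher in HBSS than with Torin, a difference in counts that was not tested. The PERK branch effectors, already reported above, made up 8 of the 30 genes passing higher in HBSS and 2 of the 20 with Torin. In HBSS the N-glycosylation list had 13 of 33 lower and 2 higher, led by ALG6, a glucosyltransferase of the lipid-linked sugar (-1.83 ± 0.18), with DPM3 at 0.998 ± 0.123. The ERAD list had 8 of 25 lower and 6 higher, with YOD1, a deubiquitinase that acts with VCP, going from 12.0 ± 2.16 to 36.0 ± 5.36 (1.51 ± 0.22) and ANKZF1 at 1.40 ± 0.13. The export list had 14 of 35 lower and 5 higher, with PREB at -1.28 ± 0.10 and SEC24A, a COPII cargo adaptor, at 0.72 ± 0.18. The isomerase list had 8 of 21 lower and 1 higher (TMX4, 0.58 ± 0.10), the cochaperone list 7 of 22 lower and 5 higher (CNPY2 at -0.96 ± 0.09, DNAJB14 at 0.88 ± 0.12), and the translocon list 13 of 26 lower and none higher (SRPRB at -0.93 ± 0.10). Among the 11 other transcription factors and proteases of the response, 3 passed higher and 1 lower in HBSS (NFYB at 0.69 ± 0.16, CREB3 at -0.79 ± 0.22), and 5 higher and 3 lower with Torin. There CREB3L4, an ER-anchored relative of ATF6, went from 5.99 ± 0.640 to 26.5 ± 0.957 (1.98 ± 0.20), and ATF6B from 7.76 ± 1.57 to 20.9 ± 3.33 (1.33 ± 0.23).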

How the data were processed

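QuantSeq Forward 3′ end libraries of 501mel RNA, 3 in each of 9 groups named by the labels, were analysed. The authors trimmed reads with trim_galore (cutadapt 2.10), checked them with FastQC 0.11.9, aligned them to hg38 with STAR 2.7.8a and normalised with edgeR. The values deposited by the authors are a signal per gene, CPM divided by a scaling factor of each library. The gene counter, annotation, scaling method and filter are not given in the sources used here. In every column 100% of values were whole reads, within 0.01, once divided by the value of 1 read, so reads were recovered. Detection is limited by counting: 3 reads correspond to 0.460 to 0.711, for counting error only.

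Values were fitted as log2(value + 1) with limma 3.58.1 (trend and robust) in R 4.3.3, 1 mean per group over 25 libraries, for the 13052 genes that reached 1 in 3 or more libraries. Fold changes are on that scale, which understates low genes. The p-values are 2-sided and were adjusted by Benjamini-Hochberg over all genes of a comparison. A call needs a 2-fold change or more beside an adjusted p below 0.05. Intervals are 95% intervals from the fit. The labels name no batch. The members and lists were chosen with earlier results of these data known. Named were all members, up to 2 genes per direction of each other list with the largest change past the adjusted p in HBSS or Torin in WT, and TFEB, TFE3, MITF and cell type markers as a check. ATF4 and DDIT3 in HBSS were added after their values had been seen. The fits were tested on simulated data. Alternatives were rescaling by median-of-ratios or TMM, a pseudocount of 0.1, no filter or a minimum of 5, only the libraries compared, a replicate block, edgeR 4.0.16 and DESeq2 1.42.0 on the recovered reads, the shared column kept in 1 or both groups, and leaving out each library. Promoters are RefSeq sequences, GRCh38.p14, matched by symbol.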

Additional observations from a re-analysis of the deposited data

Results flagged for a closer look

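The response to Torin differed between a clone and WT, by a limma test of the difference itself, in 12 of the 39 genes. All values are the Torin response of the clone minus that of WT on the log2 scale, and all were above 0. In most of these genes the clone showed a smaller fall than WT, but in TFE3 KO SYVN1 rose with Torin (0.43), and HERPUD1 (0.05) and SEL1L (0.24) did not pass there, nor did SEL1L in DKO (0.22). In TFE3 KO the differences were 1.09 for SDF2L1, 1.07 for HSPA5, 1.05 for HERPUD1, 0.93 for SYVN1, 0.87 for SEL1L, 0.72 for HSP90B1, 0.71 for DNAJB11, 0.66 for PDIA4, 0.61 for CRELD2, and 0.55 for both DNAJC3 and XBP1. In DKO they were 1.17 for HSPA5, 0.85 for SEL1L, 0.81 for SDF2L1, 0.74 for HSP90B1, 0.73 for PDIA4, 0.66 for DNAJC3, 0.64 for XBP1 and 0.43 for PDIA6. Each value equals the gap between clone and WT under Torin minus that gap without drug, so it reuses the gaps reported above. For HSPA5 in TFE3 KO these gaps were -0.27 under Torin and -1.34 without drug, and in DKO -0.05 and -1.22. Both sets share the WT libraries, of which only 2 with Torin were used. HSPA5 passed the adjusted p in both clones under all 37 settings run, and it was the only gene of the 39 to pass in either clone when the duplicated column was counted as WT Torin.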

How the results depend on the processing

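Counts of genes called or passed moved by over 1.5 times mainly where the duplicated column was put back. With it as WT Torin, and with it in both groups, the genes called with Torin in WT went from 17 to 10 and 10, those passing in TFEB KO without drug from 3 to 0 and 0, those called under Torin in TFE3 KO from 0 to 1 and 1 and passing from 8 to 15 and 16, those passing under Torin in TFEB KO from 6 to 1 and 1, and those called under Torin in DKO from 0 to 1 and 1 and passing from 10 to 16 and 16. The interaction counts went from 3 called to 0 and 0 and from 11 passing to 1 and 2 in TFE3 KO, and from 1 called to 0 and 0 and from 8 passing to 1 and 1 in DKO. Between HBSS and Torin 7 called went to 2 and 2, and 30 passing to 13 with the column as WT Torin. Between DKO and TFE3 KO 1 passing went to 0 and 0. The count passing in TFEB KO without drug was 5 under TMM, 5 with edgeR and 5 with the replicate block, a fit for pairing by number. Same-numbered libraries of different groups had a median correlation of 0.00667 (-0.192 to 0.161). Between the controls and Torin libraries of 1 genotype it was 0.039 to 0.143 in DKO and 0.027 to 0.128 in TFEB KO. It was -0.048 to 0.023 in TFE3 KO and 0.008 to 0.027 in WT. So few libraries per group cannot decide whether the numbers pair them within a genotype. The block moved no other count by over 1.5 times. With only the libraries compared, the DKO interaction count was 4 and the count between DKO and TFE3 KO 0, which DESeq2 gave as 3. Leaving out 1 library gave 1 to 4 genes passing in TFEB KO without drug, and under Torin 3 to 9 in TFE3 KO, 2 to 9 in TFEB KO and 5 to 11 in DKO, with 6 to 12 for the TFE3 KO interaction, 3 to 11 for the DKO interaction and 0 to 2 between DKO and TFE3 KO. A change near 0 turned sign for XBP1 in HBSS (-0.01), to 0.0039 by median-of-ratios, 0.0099 by TMM, 0.0095 by edgeR, 0.0035 by DESeq2, 0.0058 with the duplicated column as HBSS or in both groups, and from -0.040 to 0.023 without 1 library. It did so for ATF6 with Torin in WT (-0.01), to 0.027, 0.042, 0.045 and 0.029 by the same 4 methods, 0.289 with the column as WT Torin or in both groups, and from -0.056 to 0.027 without 1 library. The HERPUD1 call with Torin in WT ended at -0.96 by median-of-ratios, -0.94 by TMM, -0.96 by edgeR and -0.98 by DESeq2. The alternatives were also followed for 102 results. These were the calls among the members, and HSPA5, XBP1, ATF6 and EIF2AK3 with HBSS and Torin in WT. Calls gained by other members lay outside this tally, so it does not measure them. Of its 3774 values under the alternatives, 3682 kept direction and side of the threshold, 75 lost the call and 17 changed sign. The cause was not tested. Precision is limited by 2 libraries in WT HBSS and WT Torin, and by reads for EDEM1, with 12 in its lowest library.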
